A study of Rattus norvegicus with 11 samples.

Results

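Expression of 9 genes of blood coagulation and plasminogen activation was examined in the rat striatum 3 days after intracerebral hemorrhage. They were taken by gene symbol from the 30560 genes of the deposited table, and all 9 were present once and had enough reads to be tested. Plat and Plau encode the tissue-type and urokinase-type plasminogen activators, Plaur encodes the urokinase receptor, and Anxa2 and S100a10 encode the 2 proteins of the annexin A2 complex, which binds tissue-type activator and plasminogen at the cell surface. F3 encodes tissue factor, F10 and F13a1 encode coagulation factor X and the A subunit of factor XIII, and Thbd encodes thrombomodulin.

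The samples were 11 adult male Sprague-Dawley rats with 1 poly(A) library each. Hemorrhage was induced by bacterial collagenase VII-S injected into the right striatum, with 0.2 U in 1 µL in the 3 rats of IC, the common form, and 0.6 U in 3 µL in the 3 rats of IS, the severe form. The 3 IS-HA rats received the IS dose, and 150 µL of the hematoma was aspirated through a catheter 6 h later. The 2 Normal rats received neither collagenase nor aspiration, so against Normal the effects of bleeding, of the enzyme and of the needle cannot be told apart. Collagenase opens vessels by digesting their wall, and IC and IS differ in both enzyme dose and injected volume. Values per rat are given below in the order of the labels, which number the rats 1 and 3 in Normal, 2, 3 and 4 in IC and IS, and 1, 2 and 3 in IS-HA. Same-numbered rats of different groups are different animals.

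Libraries held between 6701301 and 18817645 counts assigned to genes, and the smallest was IS-HA replicate 2. That library also stood apart from its group, with a median correlation across genes of 0.908 with the other IS-HA rats, beside 0.942 to 0.981 for the other 10 rats within their groups. Levels are given as TPM, a unit scaled for gene length and library size. Differences are log2 fold changes from the counts, fitted with the quasi-likelihood model of edgeR, and a gene was called at a Benjamini-Hochberg adjusted p under 0.05 over 15742 genes tested. The 5 striatal projection neuron markers checked (Drd1, Drd2, Ppp1r1b, Adora2a and Pde10a) summed to between 3082 and 3236 TPM in Normal and were present in every group, at 1327 to 2442 TPM in IC, 666 to 1651 TPM in IS and 621 to 1390 TPM in IS-HA. These are bulk samples, in which fewer cells of a type and less RNA per cell cannot be told apart.

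Coagulation starts when tissue factor, held by cells around vessels and by astrocytes, meets factor VII of the blood. The pair activates factor X, factor X makes thrombin, thrombin makes fibrin, and factor XIII cross-links the fibrin. Thrombomodulin on the vessel wall turns thrombin towards activation of protein C, which slows clotting. Fibrin is dissolved by plasmin, which the activators encoded by Plat and Plau release from plasminogen. In the brain, tissue-type activator is also made by neurons, while the urokinase system is known from migrating leukocytes and reactive tissue. Most circulating coagulation factors are made in the liver, whereas factor XIII A is known from macrophages and platelets.

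Promoter sequences in RefSeq on the GRCr8 assembly, from 250 bases before to 50 bases after the start site, were at hand for 5 of the 9 genes, namely Plau, Plaur, F10, F13a1 and Anxa2. Those of Plaur (chr1:89181113-89181412, plus strand) and Anxa2 (chr8:78986002-78986301, plus strand) are shown because these genes had the most similar profiles of the 9, and that of Plau (chr15:3511938-3512237, minus strand) because Plau had the largest changes. Each is written 5′ to 3′ on the gene's strand, and capitals mark a match to TGANTCA, the core of an AP-1 site, searched on both strands.
Plaur: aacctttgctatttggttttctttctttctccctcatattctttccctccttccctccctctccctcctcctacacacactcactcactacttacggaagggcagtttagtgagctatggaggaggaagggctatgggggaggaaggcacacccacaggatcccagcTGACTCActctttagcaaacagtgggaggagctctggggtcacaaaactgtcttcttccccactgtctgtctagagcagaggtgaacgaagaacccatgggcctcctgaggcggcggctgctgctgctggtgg
Anxa2: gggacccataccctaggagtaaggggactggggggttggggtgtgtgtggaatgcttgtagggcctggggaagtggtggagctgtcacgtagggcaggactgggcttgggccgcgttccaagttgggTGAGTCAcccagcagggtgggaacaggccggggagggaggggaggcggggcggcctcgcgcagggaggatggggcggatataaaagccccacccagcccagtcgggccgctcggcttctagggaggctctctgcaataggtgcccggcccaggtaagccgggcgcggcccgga
Plau: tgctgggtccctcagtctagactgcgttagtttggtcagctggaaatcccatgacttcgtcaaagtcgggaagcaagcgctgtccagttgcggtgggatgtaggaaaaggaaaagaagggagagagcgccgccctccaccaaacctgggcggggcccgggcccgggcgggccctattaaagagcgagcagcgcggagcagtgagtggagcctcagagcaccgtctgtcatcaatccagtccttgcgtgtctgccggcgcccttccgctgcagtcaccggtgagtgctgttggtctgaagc
The match began at position -83 from the start site in Plaur and at position -123 in Anxa2, and these letters were not found in the 300 bases of Plau, F10 or F13a1. Of 33469 rat promoters of this length, 7.33% held TGANTCA. The GC-rich letters GGGCGG, which 33.1% of promoters held on either strand, occurred 3 times in Plau, at positions -122, -104 and -87, and 2 times in Anxa2, at -76 and -52. Anxa2 also held TATAAA at -45, found in 14.2% of promoters. These matches describe the letters only.

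Against Normal, 8 of the 9 genes were higher in each of IC, IS and IS-HA, and Plat was the exception in all 3. Of all genes tested, 13% were called higher in IC, 24.8% in IS and 19.5% in IS-HA. Each of those 8 genes was also higher in every rat of the 3 groups than in both Normal rats, a pattern shown by 32.4%, 37.6% and 31.7% of all genes tested. The median log2 fold change of the 9 was 3.45 in IC, 3.78 in IS and 3.69 in IS-HA, beside 0.00, 0.02 and 0.06 over all genes tested. The 3 comparisons share the 2 Normal rats and are therefore not independent of each other. Plau and F10 had too few reads in both Normal rats to be tested on those alone. Plaur had too few in Normal replicate 1, with 14 counts, and could not be tested on the Normal rats alone either. Plau, F10 and Plaur entered the test through the injected rats, where they were high, so a fall could hardly have been called for them. Without Normal replicate 3, 5 of the 9 were called in IC, and F10, F13a1 and Thbd no longer passed (adjusted p = 0.0850, 0.0565 and 0.138).

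**Figure D1:**
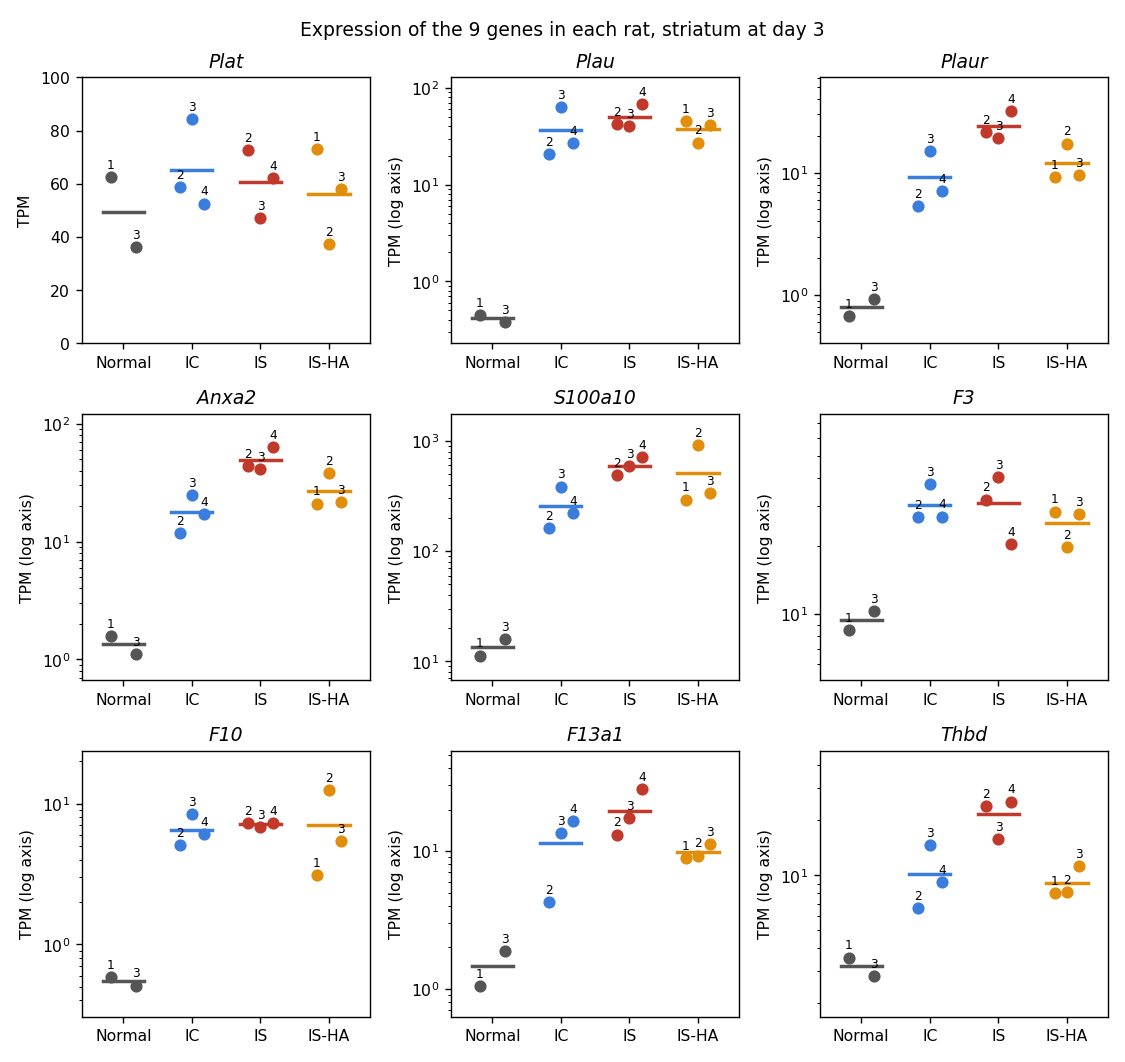
TPM of each of the 9 genes in each rat (points, numbered by replicate) and the group mean (line), for Normal (n = 2), IC, IS and IS-HA (n = 3 each); the axis is linear from 0 for Plat and logarithmic for the others. The Normal rats lay below the other 9 rats for every gene except Plat, for which they stood at 62.6 TPM, within the range of the rest, and at 36.3 TPM, the lowest value of the 11 rats.

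The plasminogen activators differed. Plat (ENSRNOG00000019018), encoding tissue-type activator, stood at 62.6 and 36.3 TPM in the Normal rats, at 58.8, 84.2 and 52.6 TPM in IC, at 72.6, 47.2 and 62.0 TPM in IS, and at 73.1, 37.5 and 57.9 TPM in IS-HA. All 4 groups overlapped, and the difference between the 2 Normal rats was larger than that between any pair of group means. The log2 fold change against Normal was 0.32 in IC, 0.29 in IS and 0.12 in IS-HA, each with a standard error of 0.29 (adjusted p = 0.477, 0.437 and 0.759).

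Plau (ENSRNOG00000010516), encoding urokinase, was nearly absent in Normal, with 12 and 10 counts, or 0.445 and 0.379 TPM. It stood at 20.6, 63.0 and 26.9 TPM in IC, at 42.6, 40.7 and 67.8 TPM in IS, and at 45.3, 27.3 and 41.7 TPM in IS-HA. The fitted rise was 83.5-fold in IC (log2 6.38 ± 0.60 SE, adjusted p = 0.000122), 123-fold in IS (6.94 ± 0.61, adjusted p = 3.57e-05) and 88.7-fold in IS-HA (6.47 ± 0.60, adjusted p = 8.25e-05), the largest of the 9 genes in each comparison. The size of these folds rests on the few counts in Normal, and on log2(TPM + 1) the log2 fold change was 4.58, 5.15 and 4.76. The rats of IC, IS and IS-HA overlapped with each other, and IC replicate 3 lay above 2 of the 3 IS rats.

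The TPM ratio of Plau to Plat was 0.00712 and 0.0105 in the Normal rats and averaged 0.537 ± 0.200 (SD, n = 3) in IC, 0.847 ± 0.254 in IS and 0.690 ± 0.0608 in IS-HA. It reached 1.09 in IS replicate 4 and was below 1 in the other 10 rats.

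The urokinase receptor gene Plaur (ENSRNOG00000037931) stood at 0.669 and 0.928 TPM in Normal, at 5.30, 15.1 and 7.11 TPM in IC, at 21.6, 19.1 and 31.7 TPM in IS, and at 9.28, 17.3 and 9.58 TPM in IS-HA. It rose 10.9-fold in IC (log2 3.45 ± 0.60 SE, adjusted p = 0.00293), 30.6-fold in IS (4.93 ± 0.63, adjusted p = 0.000214) and 15.4-fold in IS-HA (3.94 ± 0.61, adjusted p = 0.00110). In TPM every IS rat lay above every IC and IS-HA rat. In TPM, Plaur was above the gene of its ligand, Plau, in Normal, at a ratio of 1.50 and 2.45, and below it in the other 9 rats. The Normal ratios rest on few counts, 14 and 19 for Plaur and 12 and 10 for Plau, and their size depends on the gene lengths behind the TPM. The ratio was 0.258, 0.239 and 0.264 in IC and 0.506, 0.468 and 0.467 in IS, with no overlap between these groups. In IS-HA it was 0.205, 0.634 and 0.230, so that replicates 1 and 3 lay below the IC range and replicate 2 above the IS range. The ratios were not tested.

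The 2 genes of the annexin A2 complex had the largest rises in IS after Plau, and S100a10 had the highest level of the 9 in IC, IS and IS-HA. Anxa2 (ENSRNOG00000010362) stood at 1.57 and 1.11 TPM in Normal, at 11.8, 24.8 and 17.2 TPM in IC, at 43.6, 41.5 and 63.7 TPM in IS, and at 21.0, 38.1 and 21.7 TPM in IS-HA. It rose 12.7-fold in IC (log2 3.67 ± 0.51 SE, adjusted p = 0.000777), 37.4-fold in IS (5.22 ± 0.55, adjusted p = 7.65e-05) and 20.6-fold in IS-HA (4.36 ± 0.52, adjusted p = 0.000276). The 3 groups were ordered IC, IS-HA and IS by their means, and the IC and IS-HA rats overlapped.

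S100a10 (ENSRNOG00000023226), encoding p11, the partner that annexin A2 carries at the membrane, stood at 11.3 and 15.9 TPM in Normal, at 162, 384 and 221 TPM in IC, at 487, 594 and 709 TPM in IS, and at 293, 920 and 334 TPM in IS-HA. IS-HA replicate 2 had the highest value of the 11 rats, and the other IS-HA rats lay within the IC range. The rise was 18.1-fold in IC (log2 4.18 ± 0.68 SE, adjusted p = 0.00199), 45.1-fold in IS (5.49 ± 0.73, adjusted p = 0.000264) and 40.7-fold in IS-HA (5.35 ± 0.72, adjusted p = 0.000504). Without IS-HA replicate 2 the log2 fold change in IS-HA was 4.40. The TPM ratio of S100a10 to Anxa2 averaged 14.0 ± 1.32 (SD, n = 3) in IC, 12.2 ± 1.82 in IS and 17.8 ± 5.51 in IS-HA, and was 7.18 and 14.3 in the Normal rats. Its size depends on the gene lengths behind the deposited TPM, in which Anxa2 was counted as 12.3 times as long as S100a10, so the ratio is comparable between rats but not a count of molecules.

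**Figure D2:**
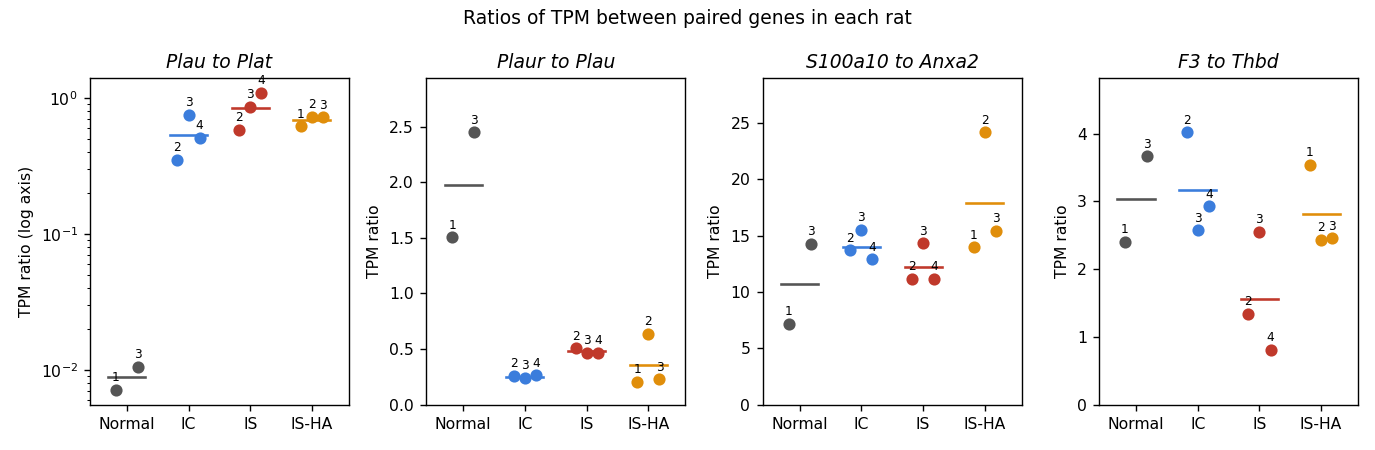
TPM ratios of paired genes in each rat (points, numbered by replicate) with the group mean (line), for Plau to Plat on a logarithmic axis and for Plaur to Plau, S100a10 to Anxa2 and F3 to Thbd on linear axes from 0. Plau to Plat lay near 0.01 in the Normal rats and between 0.350 and 1.09 in the others, and Plaur to Plau separated IC, at 0.239 to 0.264, from IS, at 0.467 to 0.506.

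Of the coagulation genes, F3 (ENSRNOG00000011800), encoding tissue factor, had the smallest rise that passed the test in IS. It stood at 8.53 and 10.3 TPM in Normal, at 26.7, 37.6 and 26.9 TPM in IC, at 32.0, 40.1 and 20.4 TPM in IS, and at 28.3, 19.7 and 27.6 TPM in IS-HA. Its level in Normal was above that of Plau, Plaur, Anxa2, F10, F13a1 and Thbd in TPM. The rise was 3.11-fold in IC (log2 1.64 ± 0.25 SE, adjusted p = 0.00148), 3.31-fold in IS (1.73 ± 0.26, adjusted p = 0.000497) and 2.64-fold in IS-HA (1.40 ± 0.25, adjusted p = 0.00262).

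F10 (ENSRNOG00000033444), encoding factor X, was low throughout, with 7 and 6 counts in the Normal rats and between 32 and 109 counts in the others. In TPM it stood at 0.582 and 0.510 in Normal, at 5.10, 8.42 and 6.06 in IC, at 7.26, 6.80 and 7.30 in IS, and at 3.13, 12.5 and 5.45 in IS-HA. It rose 11.2-fold in IC (log2 3.49 ± 0.69 SE, adjusted p = 0.00609) and 12.9-fold in both IS (3.69 ± 0.70, adjusted p = 0.00185) and IS-HA (3.69 ± 0.70, adjusted p = 0.00339). The IS rats lay within 1.08-fold of each other, while IS-HA spanned 4.00-fold and held both the lowest and the highest value outside Normal. Without IS-HA replicate 2, the highest, the log2 fold change in IS-HA against Normal was 2.79 (adjusted p = 0.00124 by edgeR).

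F13a1 (ENSRNOG00000015957), encoding the fibrin cross-linking subunit of factor XIII, stood at 1.05 and 1.89 TPM in Normal, at 4.27, 13.5 and 16.5 TPM in IC, at 13.2, 17.4 and 28.1 TPM in IS, and at 8.89, 9.27 and 11.3 TPM in IS-HA. It rose 7.67-fold in IC (log2 2.94 ± 0.61 SE, adjusted p = 0.00754), 13.7-fold in IS (3.78 ± 0.63, adjusted p = 0.000919) and 6.68-fold in IS-HA (2.74 ± 0.61, adjusted p = 0.00744). IC replicate 2 was the lowest injected rat, and the IS-HA rats lay close together, below all IS rats.

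Thbd (ENSRNOG00000004687), encoding thrombomodulin, stood at 3.55 and 2.81 TPM in Normal, at 6.66, 14.6 and 9.20 TPM in IC, at 23.9, 15.8 and 25.3 TPM in IS, and at 8.0, 8.12 and 11.2 TPM in IS-HA. It rose 3.04-fold in IC (log2 1.60 ± 0.35 SE, adjusted p = 0.0105), 6.85-fold in IS (2.78 ± 0.37, adjusted p = 0.000274) and 2.81-fold in IS-HA (1.49 ± 0.35, adjusted p = 0.0102). Every IS rat lay above every IC and IS-HA rat, which overlapped with each other. The TPM ratio of F3 to Thbd, a procoagulant and an anticoagulant protein of cell surfaces, averaged 3.17 ± 0.753 (SD, n = 3) in IC, 1.56 ± 0.892 in IS and 2.81 ± 0.633 in IS-HA, beside 2.40 and 3.66 in the Normal rats. The IS ratio was 1.34, 2.55 and 0.806, and IS replicate 3 lay within the range of IS-HA.

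The comparison of IS with IC addresses the severity of the bleeding. No gene of the 9 was called, beside 0% of all 15742 genes, so the test across all genes gave no call for any gene here. The log2 fold change was 1.56 ± 0.39 (SE) for Anxa2, 1.49 ± 0.43 for Plaur, 1.32 ± 0.50 for S100a10 and 1.17 ± 0.30 for Thbd, with adjusted p of 0.147, 0.151, 0.182 and 0.147 by edgeR. In these 4 genes every IS rat was above every IC rat, which held for 19.2% of all genes tested. Their unadjusted p was under 0.05, which held in the same direction for 10.5% of all genes tested. The groups overlapped for F3 (0.09 ± 0.21), F10 (0.20 ± 0.49), Plat (-0.03 ± 0.26), Plau (0.56 ± 0.36) and F13a1 (0.84 ± 0.47). The median over the 9 genes was 0.84, beside -0.00 over all genes tested.

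The call depended on the test and on which rats were in the fit. DESeq2's Wald test called Anxa2, Thbd and Plaur higher in IS (adjusted p = 0.00849, 0.0130 and 0.0281), beside 3.05% of all genes. Without IS-HA replicate 2, which is in the fit of all 11 rats but in neither group here, edgeR called Anxa2, Thbd, Plaur and S100a10 (adjusted p = 0.0218, 0.0330, 0.0296 and 0.0256), beside 6.38% of all genes.

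The comparison of IS-HA with IS addresses aspiration of the hematoma, and it shares the IS rats with the comparison above. None of the 9 genes was called lower in IS-HA, beside 0% of all genes, and none higher, beside 0.00635%. At an unadjusted p under 0.05, 4 of the 9 were lower, beside 3.36% of all genes. These were Thbd (-1.28 ± 0.30 SE, adjusted p = 0.476 by edgeR), F13a1 (-1.04 ± 0.47, adjusted p = 0.558), Plaur (-0.99 ± 0.43, adjusted p = 0.553) and Anxa2 (-0.86 ± 0.38, adjusted p = 0.556). Thbd and F13a1 were lower in every IS-HA rat than in every IS rat, as were 5.42% of all genes tested. Plaur and Anxa2 were so in TPM, but in the TMM-normalized counts of the test IS-HA replicate 2 overlapped IS.

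The other 5 genes overlapped between IS and IS-HA, with log2 fold changes of -0.47 ± 0.36 (SE) for Plau, -0.33 ± 0.22 for F3, -0.16 ± 0.26 for Plat, -0.15 ± 0.49 for S100a10 and 0.01 ± 0.50 for F10. The median of the 9 was -0.47, beside 0.05 over all genes. DESeq2's Wald test called Thbd lower in IS-HA (-1.31, adjusted p = 0.0201), beside 0.14% of all genes. Without IS-HA replicate 2, edgeR called Anxa2 lower (-1.38, adjusted p = 0.0467), beside 0.975% of all genes, and the log2 fold change of F10 was -0.90 (adjusted p = 0.102). In the same edgeR fit S100a10 was at -1.09, Plaur at -1.51 and Thbd at -1.33, and none of them was called (adjusted p = 0.0683, 0.0561 and 0.0516).

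IS-HA replicate 2 had the highest Plaur, F10, Anxa2 and S100a10 of its group and the lowest Plat, Plau and F3. Its 6 microglia and macrophage markers summed to 2894 TPM and its 6 neutrophil markers to 858 TPM, the latter the highest of all rats, where the lowest sums in the group were 1689 and 169 TPM. The part of these cells in the values of that rat was not tested.

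IS-HA was also set beside IC, the group with the smaller dose and no aspiration. None of the 9 genes was called by edgeR, beside 0% of all genes tested, or by DESeq2's Wald test. At an unadjusted p under 0.05, S100a10 alone was higher in IS-HA (1.17 ± 0.50 SE, adjusted p = 0.841 by edgeR), beside 2.59% of all genes, and without IS-HA replicate 2 none of the 9 was. Thbd, at 9.12 ± 1.84 TPM in IS-HA and 10.1 ± 4.05 TPM in IC (SD, n = 3 each), had a log2 fold change of -0.11 ± 0.30 (SE).

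**Figure D3:**
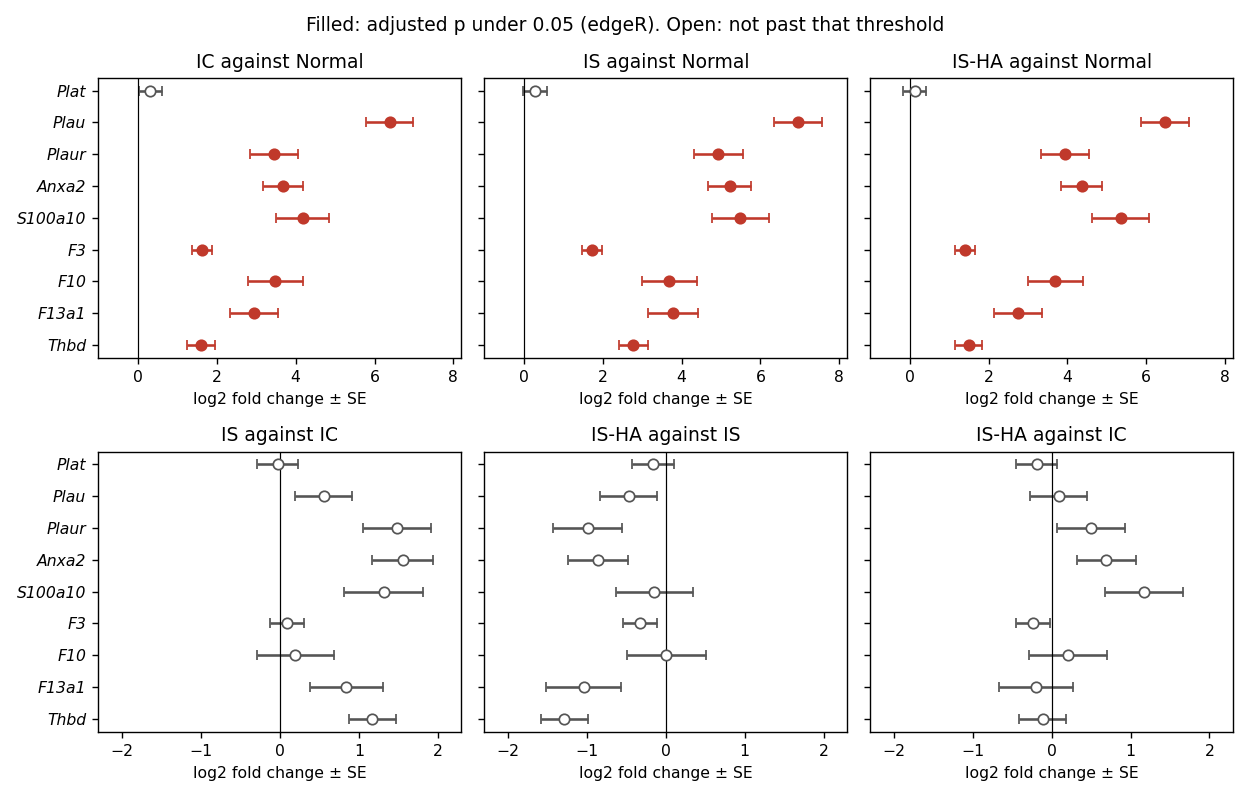
Log2 fold change with its standard error for the 9 genes in each of the 6 comparisons (edgeR, 11 rats in one fit); filled points passed an adjusted p of 0.05 and open points did not. The 8 genes other than Plat passed against Normal in all 3 groups, and no gene passed in the 3 comparisons among IC, IS and IS-HA, where Plaur, Anxa2, S100a10 and Thbd lay above 1 for IS against IC.

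By mean TPM, Plat was highest in IC and the other genes in IS. The lead was narrow for F10, at 7.12 TPM in IS and 7.03 TPM in IS-HA, and for F3, at 30.9 TPM in IS and 30.4 TPM in IC. In the fit to the counts, F10 was not lower in IS-HA than in IS. The share of all genes that were highest in IS was not taken. The step from Normal to the next group passed the test for 8 genes, with no overlap. The steps among IC, IS and IS-HA did not pass for any gene, and neighbouring groups overlapped in TPM except between IS-HA and IS for Plaur and Anxa2 and between IC and IS for Thbd.

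Markers of leukocytes moved in the same direction as the 8 genes. The microglia and macrophage markers (Cd68, Aif1, Csf1r, Itgam, Tyrobp and C1qa) were called higher than Normal in 6 of 6 genes in each group, and their summed level ranged from 134 to 193 TPM in Normal, 1321 to 1943 in IC, 2349 to 3636 in IS and 1689 to 2894 in IS-HA. Of the monocyte markers (Ccr2, Ly6c, Cd14, Vcan and Fn1), 5 of 5 tested were higher in each group, with sums of 20.7 to 21.9, 89.8 to 208, 165 to 297 and 137 to 159 TPM in the same order. Much of this sum came from Vcan and Fn1, which averaged 10.5 and 9.78 TPM in Normal and 35.1 and 95.4 TPM in IS. In IS, Cd14 averaged 85.0 TPM, Ly6c 10.2 TPM and Ccr2 4.12 TPM. Of the neutrophil markers (S100a8, S100a9, Mmp8, Csf3r and Cxcr2), 5 of 5 tested were higher, with sums of 5.03 to 5.23, 84.7 to 267, 494 to 697 and 169 to 858 TPM. The sums include Ngp, which reached at most 10 counts and was not tested. Most of the sum came from S100a8 and S100a9, at means of 256 and 255 TPM in IS. Csf3r averaged 45.4 TPM there, Mmp8 8.98 TPM and Cxcr2 4.65 TPM. The part of these cells in the levels of the 9 genes was not tested.

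Markers of red cells, platelets and other cell types differed in direction from list to list. Of 3 red cell genes tested, none was called in any comparison with Normal, and their sum was 54.2 to 57.7 TPM in Normal, 38.9 to 164 in IC, 24.8 to 38.8 in IS and 15.6 to 32.1 in IS-HA. Of the platelet markers, Gp1bb was at 0 counts in every rat and Ppbp and Gp9 reached at most 1 and 2 counts, while 1 of the 3 tested was called higher in each group against Normal. Pf4, which macrophages also express, averaged 2.38 TPM in Normal and 428 TPM in IS, Itga2b 4.61 and 5.53 TPM, and Gp5 1.82 and 0.817 TPM. The sum of the 6 platelet markers was 7.19 to 10.4 TPM in Normal, 113 to 312 in IC, 164 to 777 in IS and 86.7 to 289 in IS-HA. The endothelial markers summed to 116 to 161 TPM in Normal, 204 to 238 in IC, 235 to 244 in IS and 198 to 240 in IS-HA, with 1 of 6 called higher in IC, 2 higher and 1 lower in IS, and 1 higher and 1 lower in IS-HA. The astrocyte markers summed to 2485 to 2756 TPM in Normal, 5989 to 8230 in IC, 3390 to 5985 in IS and 4765 to 6305 in IS-HA, with 1 of 6 called higher in each. In IS the higher sum came from Gfap alone, which averaged 401 TPM in Normal and 3545 TPM in IS. The means of Aqp4, Slc1a3, Aldh1l1, Gja1 and Aldoc were all lower in IS than in Normal. The pericyte and fibroblast markers summed to 133 to 157, 144 to 256, 194 to 278 and 115 to 222 TPM, with 4 of 6 called higher in IC, 5 higher and 1 lower in IS, and 4 higher and 1 lower in IS-HA. The mean of Rgs5, a pericyte marker, was 91.7 TPM in Normal and 25.6 TPM in IS. The other markers of this list went the other way, with Kcnj8 at 7.16 and 20.7 TPM and Pdgfrb at 18.5 and 29.4 TPM. The means of Col1a1, Col3a1 and Dcn were also higher in IS than in Normal. The oligodendrocyte markers summed to 16890 to 17281, 9843 to 14233, 5782 to 9847 and 8870 to 13636 TPM, with 0 of 6 called lower in IC, 6 in IS and 1 in IS-HA. The 6 hepatocyte markers summed to 5.08 to 6.43, 5.45 to 20.2, 11.1 to 32.5 and 14.2 to 22.5 TPM, and of the 4 tested 1 was called higher in IS and none in IC or IS-HA. Of these markers, Ahsg was at 0 counts in every rat, Alb averaged between 0.599 and 2.07 TPM, and the mean of Hp was 1.87 TPM in Normal and 15.2 TPM in IS. The part of these cell types in the levels of the 9 genes was not tested.

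For each gene, the most similar profiles among all genes tested were found by the root mean square difference between log2 normalized levels, each centred over the 11 rats. This is a description over rats that share the same groups. Plaur lay nearest to Plp2 (0.143) and Smagp (0.215), Anxa2 to Lsp1 (0.140) and Arpc1b (0.179), and Plat to Fgfbp3 (0.126) and Robo4 (0.180). Plau lay nearest to Cd68 (0.319), which encodes a lysosomal protein of macrophages, and Atp8b4 (0.356), and F10 to Fcgr1a (0.330), which encodes a high-affinity Fc receptor of myeloid cells, and Psmb9 (0.337), which encodes a subunit of the immunoproteasome. Thbd lay nearest to Gabrr2 (0.236) and Nod2 (0.261), F3 to Hmgn2-ps4 (0.215) and Ncapd2 (0.216), S100a10 to Emp3 (0.282) and Lgals1 (0.287), and F13a1 to Ppp1r3b (0.359) and Fmo5 (0.362). Among the 9 themselves, Plaur and Anxa2 were closest (0.293), followed by Anxa2 and S100a10 (0.400), while Plat and Plau were farthest apart (2.39).

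The remaining coagulation and fibrinolysis genes were read from a list of 43, all present in the table, of which 24 had enough reads to be tested. The 19 others reached at most 11 counts in any rat, and 4 of them were at 0 in every rat. Among these were the substrates and partners of the genes above. Plg, encoding plasminogen, reached 11 counts, F2, encoding prothrombin, 4 counts, F7, encoding factor VII, 3 counts, and Serpinb2, encoding plasminogen activator inhibitor 2, 1 count. Of the 24, 10 were called higher and 0 lower in IC, 15 higher and 1 lower in IS, and 12 higher and 1 lower in IS-HA against Normal, with medians of 1.15, 1.18 and 1.05. Of all genes tested, 4.64%, 24.2% and 12.1% were called lower. None was called in IS against IC, beside 0% of all genes, while DESeq2's Wald test called Mcfd2 (0.40, adjusted p = 0.0469) and F2rl1 (1.31, adjusted p = 0.0376), named after their values were seen. None was called in IS-HA against IS or IC by edgeR or by DESeq2's Wald test. At an unadjusted p under 0.05 by edgeR, 4 of the 24 were higher and 2 lower in IS against IC, beside 10.5% and 11.7% of all genes. None was lower in IS-HA against IS, beside 3.36%, and none higher. In IS-HA against IC, 0 were higher and 2 lower, beside 2.59% and 2.38%.

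Among the inhibitors of the activators, Serpine2, which encodes protease nexin 1, had -0.29 ± 0.19 (SE) in IS against Normal (adjusted p = 0.211 by edgeR), and Serpini1, which encodes the neuronal inhibitor neuroserpin, had -1.23 ± 0.59 (adjusted p = 0.104), or -0.64 without Normal replicate 3 and -1.90 without IS replicate 2. In IS against Normal, where 24.8% of all genes were called higher and 24.2% lower, 4 of the 7 genes tested for fibrinolysis and its inhibitors rose and 0 fell, among them A2m (3.51 ± 0.49), encoding alpha-2-macroglobulin, Tgm2 (3.42 ± 0.56), encoding tissue transglutaminase, and Serpinf2 (1.85 ± 0.40), encoding alpha-2-antiplasmin. The Tgm2 value was 4.44 without Normal replicate 1 and 2.83 without Normal replicate 3.

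All 4 anticoagulant genes tested rose in each group against Normal, beside the 13%, 24.8% and 19.5% of all genes called higher in IC, IS and IS-HA. With the replicate number as a block, 2 of the 4 were called in IC. In IS these were Tfpi2 (4.00 ± 0.57 SE, from 5 and 4 counts in Normal), Procr (2.54 ± 0.39), encoding the protein C receptor that works beside thrombomodulin, Pros1 (2.11 ± 0.19), encoding protein S, and Tfpi (1.26 ± 0.22), encoding the inhibitor of tissue factor and factor X. The coagulation factor group held 9 genes tested, namely F5, F8, F12, Vwf, Klkb1 and, not encoding factors themselves, Lman1, Mcfd2, Ggcx and Vkorc1. Of these, 4 rose and 1 fell in IS, beside 24.8% and 24.2% of all genes. Among the 4 that rose, only F5 and Vwf encode factors. Vwf, encoding von Willebrand factor, had 1.78 ± 0.31, F5, encoding factor V, had 5.53 ± 0.95 from 1 and 5 counts in Normal, and F12, encoding factor XII, fell by 1.94 on the log2 scale (SE 0.41, adjusted p = 0.00342 by edgeR). Another, Klkb1, entered the test through 53 counts in IC replicate 3 and 22 in IS-HA replicate 1, was at 0 in the other 9 rats and was not called.

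Among the protease-activated receptors, through which thrombin and other proteases act on cells, F2r, the main thrombin receptor gene, had 0.37 ± 0.32 (SE) in IS against Normal (adjusted p = 0.347 by edgeR). The other 3 genes rose in IS, beside 24.8% of all genes, with F2rl1 at 2.41 ± 0.47, and with F2rl2 at 4.03 ± 0.94 and F2rl3 at 3.23 ± 0.87. Like F5, Tfpi2 and Serpinf2, F2rl2 and F2rl3 had too few reads in both Normal rats to be tested on those alone. F2rl1, with 15 and 17 counts, and Procr, with 21 and 15 counts, had enough in only 1 Normal rat and could not be tested on the Normal rats alone either. These genes entered the test through the injected rats, where they were high, so a fall could hardly have been called for them. The F2rl2 value rests on 1 and 2 counts in the Normal rats, so that its size is uncertain, as is that of F5, which was 4.86 without Normal replicate 1, 6.91 without Normal replicate 3 and 4.92 without IS replicate 4. F2rl3 had 6 and 0 counts in the Normal rats. Its value was 7.50 without Normal replicate 1, when the Normal rat left was at 0, and 2.23 without Normal replicate 3, when it no longer passed (adjusted p = 0.0683 by edgeR).

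**Figure D4:**
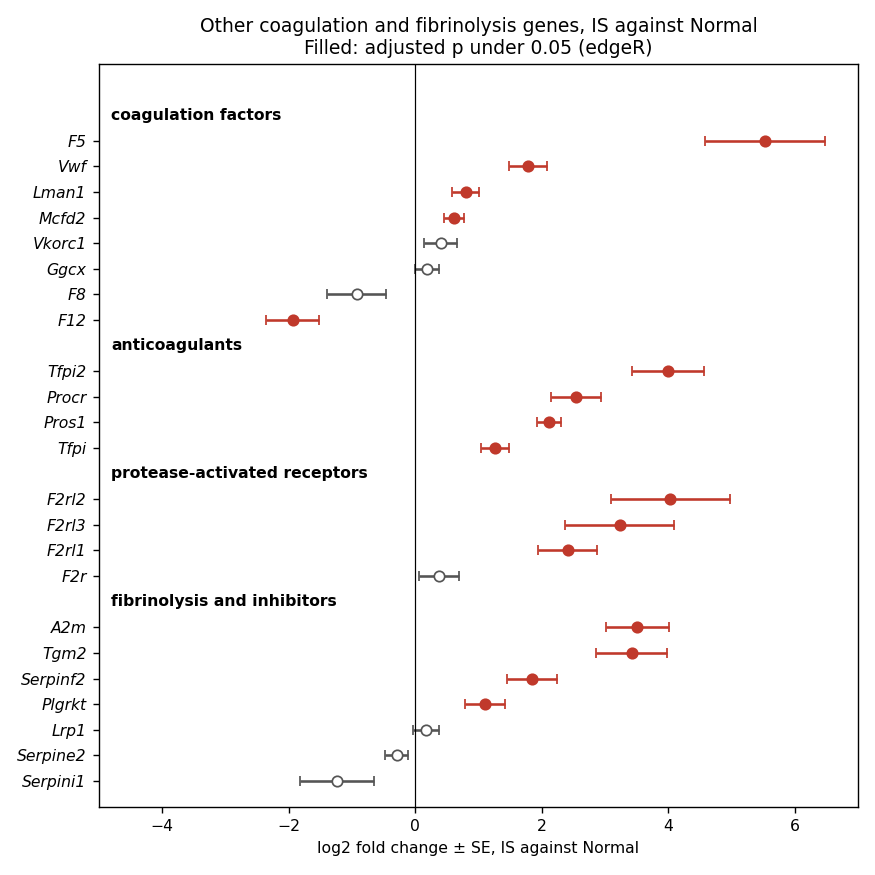
Log2 fold change with its standard error in IS (n = 3) against Normal (n = 2) for 23 of the 24 other coagulation and fibrinolysis genes tested, by role; Klkb1, at 0 counts in both groups, is left out. Filled points passed an adjusted p of 0.05 and open points did not, and 15 genes rose while F12 fell.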

How the data were processed

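RNA of the ipsilateral striatum (the corresponding region in Normal) was measured in 11 rats from stranded poly(A) libraries read as 150-base pairs. The authors deposited, for each rat, unnormalized counts as whole numbers and TPM, in which counts are scaled by gene length and to a common sum. The submitters' processing notes name fastp 0.20.0, HISAT2 2.1.0, SAMtools 1.9, featureCounts of Subread, DESeq2 and the build mRatBN7.2. Columns were matched to rats by library name, 0 columns were left unmatched, and p-values measure the spread between these rats. Promoter sequences and their coordinates are on GRCr8, another build, and no other gene coordinates are given.

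Counts were filtered with filterByExpr, normalized by TMM and tested with the quasi-likelihood F test of edgeR 4.0.16 in R 4.3.3, with all 11 rats of the 4 groups in one fit. Benjamini-Hochberg adjustment was over the 15742 genes tested of 30560. Standard errors were approximated from F, as the size of the log2 fold change over the root of F. The smallest library held 6701301 counts, in which the floor of 3 counts is 0.448 CPM. This covers counting error only, since the reads carry no molecular identifiers. The method was tested on simulated data. The 9 genes, the list of 43 related genes and the marker lists were chosen with earlier results of these data known, and 1 related gene and 1 marker are not reported here. All 9 genes are named, with partners of them, the 3 largest called genes of each role group in IS against Normal, and the 2 nearest profiles per gene. Alternatives were DESeq2's size factors, library size alone, TMM without 24 hemoglobin and mitochondrial genes, DESeq2 1.42.0 (Wald test), voom with quality weights and trended fits on log2(TPM + 1) and log2(TPM + 0.1) in limma 3.58.1, other filters, a fold cutoff, only the groups compared, the replicate number as a block, and each rat left out. Python 3.11.15 and matplotlib 3.10.9 made the plots.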

Additional observations from a re-analysis of the deposited data

How the results depend on the processing

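Calls against Normal rest on 2 Normal rats, and the low counts of F10 and Plau there limit the size of their folds. In fits that left out one rat, the 9 genes gave 5 to 8 calls in IC against Normal, 0 to 4 in IS against IC and 0 to 1 in IS-HA against IS, and the list of 43 gave 4 to 12 in IC and 6 to 13 in IS-HA against Normal and 0 to 2 in IS against IC. The lowest counts against Normal came without Normal replicate 3 and the highest counts among injected groups without IS-HA replicate 2. For IS against IC, DESeq2's Wald test called 3 of the 9 and 2 of the 43, and voom 4 and 2. For IS-HA against IS these tests called 1 and 3 of the 9. Among the alternatives, the share of all genes called is given only for DESeq2's Wald test and without IS-HA replicate 2. The other counts here, and those with the block below, describe dependence on the fit and are not results about these genes. Without Normal replicate 1, F10 in IC (adjusted p = 0.0508) and F13a1 in IC (0.0792) and IS-HA (0.0658) no longer passed, nor did Thbd in IS-HA without Normal replicate 3 (0.111). The cause was not tested. Scaling by library size alone moved the median over all genes tested against Normal from 0.00, 0.02 and 0.06 to 0.14, 0.15 and 0.18 in IC, IS and IS-HA, and 8 of the 9 genes were called in each.

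Directions that turned belonged to differences that passed no test. Without one rat, Plat ranged from -0.074 to 0.84 in IC, -0.10 to 0.82 in IS and -0.27 to 0.65 in IS-HA against Normal, and from -0.12 to 0.15 in IS against IC. In the same fits, Plau ranged from -0.21 to 0.65, Plaur from -0.034 to 1.00, F10 from -0.70 to 0.62, F13a1 from -0.60 to 0.25 and Thbd from -0.35 to 0.19 in IS-HA against IC. F3 ranged from -0.15 to 0.28 in IS against IC, and F10 from -0.90 to 0.43 and S100a10 from -1.09 to 0.19 in IS-HA against IS. In IS-HA against IS, voom gave 0.031 for Plat, and F10 was -0.014 with DESeq2's size factors, -0.026 with library size alone, -0.83 with voom, -0.19 on log2(TPM + 1) and -0.24 on log2(TPM + 0.1). F10 in IS-HA against IC was -0.60 with voom, -0.057 on log2(TPM + 1) and -0.090 on log2(TPM + 0.1). F3 in IS against IC was -0.013 on log2(TPM + 1) and -0.015 on log2(TPM + 0.1). The cause was not tested.

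Deviations of same-numbered rats of IC and IS correlated at 0.339, -0.321 and 0.0830. The mean over same-numbered rats was 0.0337 for IC and IS, -0.152 for IC and IS-HA and -0.269 for IS and IS-HA. With so few rats per group, these values cannot settle whether the replicate numbers mark something shared. With the replicate number as a block, 6 of the 9 genes were called in IC and 8 each in IS and IS-HA against Normal, with F10 (2.82, adjusted p = 0.0875) and Thbd (1.53, adjusted p = 0.135) no longer passing in IC, F13a1 at 0.50 in IS-HA against IC, and S100a10 at 0.11 in IS-HA against IS. Serpinf2 in IS against Normal no longer passed with the block (1.74, adjusted p = 0.0563), while Serpini1 passed with voom (-1.16, adjusted p = 0.0427) and without IS replicate 2 (-1.90, adjusted p = 0.0248).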
